A study of Mus musculus with 13 samples.

Results

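S100a8 and S100a9, their relative S100a7l2 and 5 further genes of neutrophils were described in mouse sciatic nerve as 1 set. The set was named by symbol and lists 10 genes: S100a8, S100a9, S100a7l2, Ly6g, Retnlg, Csf3r, Cxcr2, Ngp, Camp and Ltf. Of these, 8 had a probe set among the 15437 genes of the table, and Ly6g and Retnlg were not analysed here. The 10 genes were selected on the difference between db/db and db/+ on these same arrays. Their genotype differences are therefore given as a description, with no test.

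Nerve was taken at 24 weeks of age from mice of the BKS strain. The db allele is a mutation of the leptin receptor gene Lepr. Mice with 2 copies of it, db/db, become obese and diabetic, and db/+ mice, which carry 1 copy, were the control. The db/+ group had 7 arrays, numbered 101, 103, 104, 105, 106, 404 and 407. The db/db group had 6, numbered 110, 111, 112, 409, 410 and 411. The comparison asks what differs in nerve of a mouse model of type 2 diabetes. The labels do not state that each array came from a separate animal, so p-values measure the spread between these arrays, which may be technical.

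Values are log2 expression levels, on which a difference of 1 is a change of 1 doubling. Array medians lay between 8.63 and 8.71, correlations between arrays ran from 0.894 to 0.989, and 0 pairs of arrays were identical. Depth has no meaning for arrays, and their number limits the precision. Samples 101, 103, 104 and 106 stand apart from the other db/+ arrays. The mean of 13 neuronal genes lay between 10.84 and 11.59 on them, between 7.28 and 8.19 on db/+ 105, 404 and 407, and between 6.59 and 7.23 on the db/db arrays. Genotype differences of the members and the main counts of list genes are therefore given both ways. Correlations and array ranges are over all 13 arrays. An actin probe pair, whose 3′ minus 5′ log2 difference grows as RNA is degraded or labelled short, gave 0.96 to 1.39 on these 4 arrays, 0.40 to 1.14 on the other db/+ arrays and 0.48 to 0.92 on the db/db arrays. All 6 db/db arrays were below every db/+ array except 407, and the part of this measure in the results was not tested. The sample numbers form a lower series, 101 to 112, with 5 db/+ and 3 db/db arrays, and a higher series, 404 to 411, with 2 db/+ and 3 db/db arrays. What the numbers mark is not stated. The 4 db/+ arrays with high neuronal genes are all of the lower series. A fit without them compares db/+ 105, 404 and 407 with all 6 db/db arrays, so genotype and series are less balanced in it. A call lost or gained on leaving them out cannot be told apart from a difference between the series. Myelinating Schwann cell genes, of a cell type of the labelled tissue, were on average between 9.47 and 11.56 on every array. This level cannot tell whether an array held other tissue as well, since the 4 arrays with high neuronal genes were at 10.90 to 11.56.

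Neutrophils are short-lived white blood cells that leave the bone marrow, circulate in blood and enter tissue at sites of injury or infection. They pack antimicrobial proteins into granules that are made in sequence as the cell matures, so messengers of granule proteins mark younger cells and messengers of chemokine receptors mark mature ones. S100a8 and S100a9 are small calcium-binding proteins that pair as calprotectin, fill the cytosol of neutrophils and, once released, act as alarmins on the receptors Tlr4 and Ager. Monocytes also make both. S100a7l2 belongs to the psoriasin branch of the family, known from skin and other epithelia. In peripheral nerve, neutrophils are few unless the nerve is injured or inflamed.

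S100a8, S100a9 and S100a7l2 lie in 1 cluster of S100 genes on chromosome 3, and in the RefSeq gene order S100a8 and S100a9 are direct neighbours. Ngp, Camp and Ltf all lie on chromosome 9. On the arrays, as the values further on show, S100a8 separated the groups, S100a9 did not, and the granule genes moved together. The 250 bases before the RefSeq start of S100a8, S100a9, S100a7l2, Ngp, Camp and Ltf are therefore shown. They were read from the RefSeq promoter table for GRCm38.p6, in which 8 of the 8 measured genes were found, and are written 5′ to 3′ on the strand of the gene. The windows are chr3:90668821-90669070 on the plus strand, chr3:90695722-90695971 and chr3:91090806-91091055 on the minus strand, and chr9:110419558-110419807 and chr9:111019042-111019291 on the plus strand, and chr9:109849457-109849706 on the minus strand. Capitals mark matches on either strand to TATAAA, the TATA box, or to TTGCNNAA, a form of the sequence that C/EBP transcription factors of myeloid cells recognise, where N is any base.
S100a8: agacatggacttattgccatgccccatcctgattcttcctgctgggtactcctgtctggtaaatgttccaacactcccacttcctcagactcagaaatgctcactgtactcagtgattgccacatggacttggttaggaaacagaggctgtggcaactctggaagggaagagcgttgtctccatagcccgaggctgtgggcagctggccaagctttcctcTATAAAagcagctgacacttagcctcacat
S100a9: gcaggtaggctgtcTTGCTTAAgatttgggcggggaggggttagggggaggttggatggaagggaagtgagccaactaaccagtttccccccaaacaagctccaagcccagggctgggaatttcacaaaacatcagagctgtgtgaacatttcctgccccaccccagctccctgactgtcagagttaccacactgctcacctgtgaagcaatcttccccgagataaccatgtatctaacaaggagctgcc
S100a7l2: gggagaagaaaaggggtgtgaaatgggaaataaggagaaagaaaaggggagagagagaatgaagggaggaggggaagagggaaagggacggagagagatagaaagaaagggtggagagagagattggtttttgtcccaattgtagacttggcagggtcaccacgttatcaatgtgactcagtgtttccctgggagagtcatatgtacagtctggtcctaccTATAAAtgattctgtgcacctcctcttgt
Ngp: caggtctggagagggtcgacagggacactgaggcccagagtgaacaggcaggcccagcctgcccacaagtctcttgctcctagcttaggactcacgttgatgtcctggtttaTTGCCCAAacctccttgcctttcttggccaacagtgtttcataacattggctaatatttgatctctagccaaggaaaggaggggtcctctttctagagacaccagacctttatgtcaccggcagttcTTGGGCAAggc
Camp: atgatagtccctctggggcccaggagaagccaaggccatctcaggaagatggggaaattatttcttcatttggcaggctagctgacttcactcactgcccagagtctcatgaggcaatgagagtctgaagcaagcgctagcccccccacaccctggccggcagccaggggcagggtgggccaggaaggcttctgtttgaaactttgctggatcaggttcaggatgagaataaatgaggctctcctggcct
Ltf: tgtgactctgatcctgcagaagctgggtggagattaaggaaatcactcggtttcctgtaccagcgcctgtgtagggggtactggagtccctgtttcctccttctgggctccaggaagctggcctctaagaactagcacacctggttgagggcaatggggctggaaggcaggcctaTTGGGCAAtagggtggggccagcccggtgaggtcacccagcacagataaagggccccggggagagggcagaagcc
S100a8 held TATAAA starting 30 bases before its start, and S100a7l2 held it 29 bases before. The other 6 measured genes, S100a9 among them, had no match in this window. TTGCNNAA was found 2 times before Ngp and 1 time each before S100a9 and Ltf, and Camp held neither motif. Over 32851 promoter windows of the same length, 12.4% held TATAAA and 9.56% held TTGCNNAA. The motifs do not overlap each other in these windows, and a match describes letters only.

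S100a8 was the member whose groups did not overlap. Its log2 level on the db/+ arrays was 9.05 (101), 9.29 (103), 10.44 (104), 9.98 (105), 11.36 (106), 10.93 (404) and 12.11 (407). On the db/db arrays it was 12.90 (110), 12.97 (111), 13.02 (112), 13.34 (409), 13.41 (410) and 13.36 (411). All 6 db/db arrays lay above all 7 db/+ arrays, and the db/db arrays lay close together whereas the db/+ arrays spanned a wide range. The means were 10.45 ± 1.10 (SD, n = 7) in db/+ and 13.17 ± 0.23 (SD, n = 6) in db/db, a difference of 2.72 ± 0.43 (SE), or 6.58-fold. Without db/+ 101, 103, 104 and 106 the difference was 2.16 ± 0.37 (SE). It was 2.94 within samples 101 to 112 and 1.85 within samples 404 to 411. Of all 15437 genes, 6.17% had every db/db array above every db/+ array.

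S100a9, the partner of S100a8 in calprotectin, did not show the same separation. Its level on the db/+ arrays was 9.64 (101), 10.37 (103), 11.50 (104), 9.99 (105), 12.46 (106), 11.27 (404) and 13.77 (407). The db/db values were 12.23 (110), 7.80 (111), 11.34 (112), 13.46 (409), 12.59 (410) and 12.85 (411). The highest of all 13 values was on a control array, db/+ 407, and the lowest was on db/db 111. The means were 11.29 ± 1.46 (SD, n = 7) in db/+ and 11.71 ± 2.04 (SD, n = 6) in db/db, a difference of 0.42 ± 0.89 (SE). Leaving out db/db 111 gave 1.21, leaving out db/db 409 gave 0.07, and leaving out the 4 db/+ arrays gave 0.03 ± 1.22 (SE).

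The 2 calprotectin genes correlated more closely over the db/+ arrays than over the db/db arrays, and their deviations from the db/+ means differed most on db/db 111. Across the 7 db/+ arrays their levels correlated at r = 0.94, and across the 6 db/db arrays at r = 0.61. On db/db 111, S100a8 was 2.52 above its db/+ mean while S100a9 deviated from its own by -3.49. On each of the other db/db arrays S100a8 also stood further above its db/+ mean than S100a9 did. The deviations were 2.57 against 0.05 on db/db 112 and 2.89 against 2.17 on db/db 409. S100a8 spanned only 12.90 to 13.41 over the db/db arrays, against 9.05 to 12.11 over the db/+ arrays, and a narrow span can lower r by itself. The larger deviations of S100a8 restate the genotype differences on which the members were chosen. These correlations describe arrays on which both probe sets read the same labelled RNA, and carry no test.

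S100a7l2 had another pattern over the db/+ arrays. Its level on the db/+ arrays was 8.85 (101), 7.16 (103), 6.14 (104), 3.09 (105), 7.25 (106), 3.29 (404) and 3.42 (407). In db/db it was 5.67 (110), 7.93 (111), 7.87 (112), 7.83 (409), 9.0 (410) and 8.50 (411). The db/+ arrays fell into a low trio, 105, 404 and 407, and a high quartet, 101, 103, 104 and 106, which is also the quartet with high neuronal genes. On the db/db arrays the neuronal mean was 6.59 to 7.23 and S100a7l2 ran from 5.67 to 9.0, with both lowest on db/db 110. The part of the neuronal genes in this was not tested. The S100a7l2 means were 5.60 ± 2.32 (SD, n = 7) in db/+ and 7.80 ± 1.14 (SD, n = 6) in db/db, a difference of 2.20 ± 0.96 (SE). Without the quartet the difference was 4.53 ± 0.59 (SE), and every db/db array then lay above every remaining db/+ array. It was 0.66 ± 1.20 (SE) within samples 101 to 112, where 4 of the 5 db/+ arrays belong to the quartet, and 5.08 ± 0.35 (SE) within samples 404 to 411. The levels of the low trio lay near the lowest value of any gene on those arrays, 2.93 (105), 2.54 (404) and 2.40 (407). No detection call was available to tell these levels from background.

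**Figure D1:**
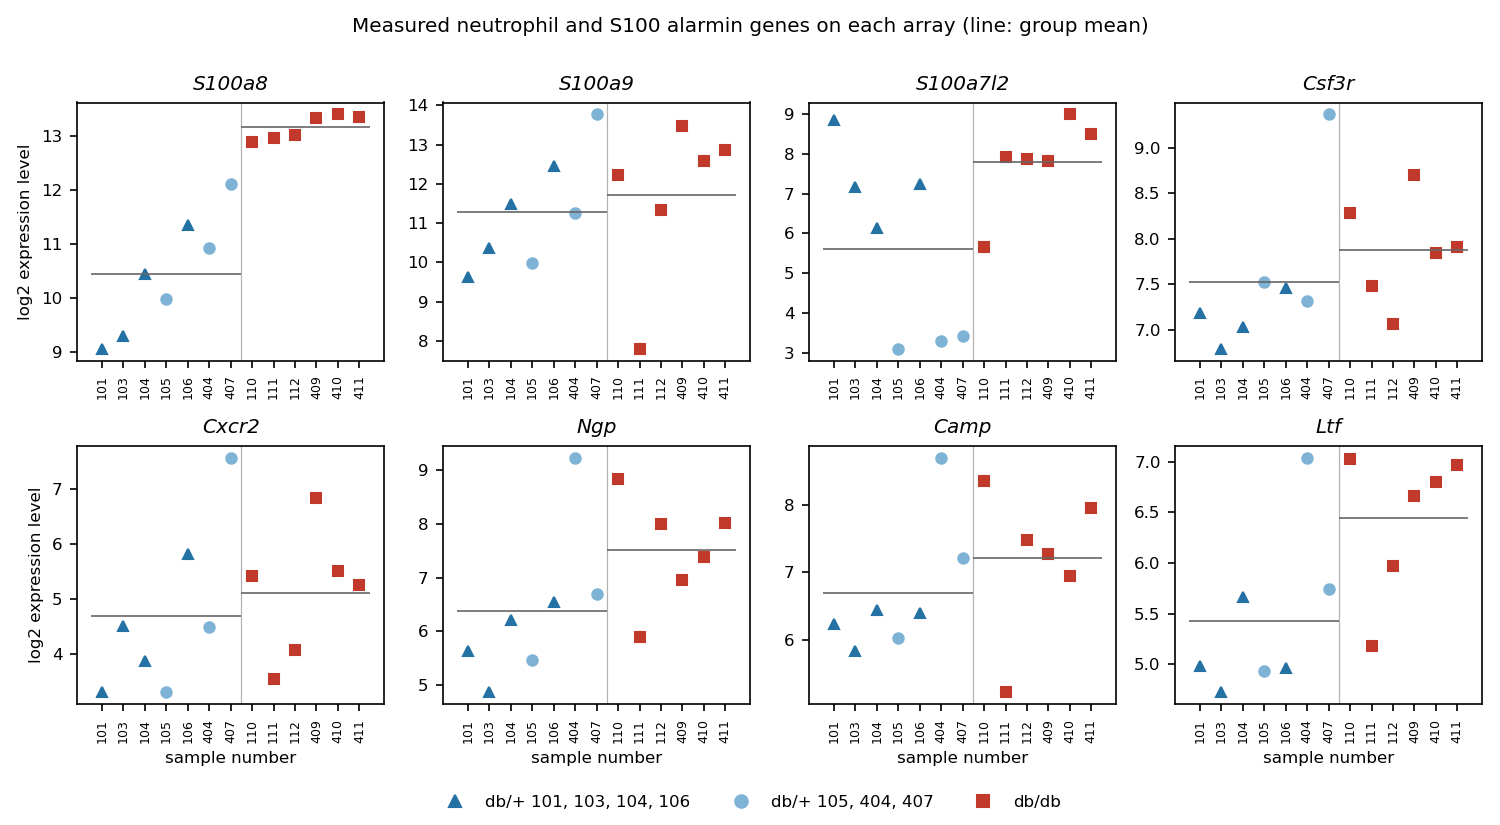
Log2 expression level (vertical axis, its own range in each panel) of the 8 measured genes on each of the 13 arrays (horizontal axis, sample number). Dark triangles are db/+ 101, 103, 104 and 106, light circles the other db/+ arrays, red squares db/db, and lines are group means. S100a8 is the panel whose groups do not overlap, S100a9 drops to 7.80 on db/db 111, and S100a7l2 is at 3.09 to 3.42 on the light circles.

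Csf3r and Cxcr2 are receptors on the neutrophil surface. Csf3r, the receptor for granulocyte colony-stimulating factor, drives production and survival of the cells. Its level was 7.19 (101), 6.79 (103), 7.03 (104), 7.53 (105), 7.46 (106), 7.32 (404) and 9.37 (407) on the db/+ arrays. On the db/db arrays it was 8.29 (110), 7.48 (111), 7.06 (112), 8.70 (409), 7.84 (410) and 7.91 (411). The groups overlapped, and db/+ 407 was above every other array. The db/+ mean was 7.53 ± 0.85 (SD, n = 7) and the db/db mean 7.88 ± 0.58 (SD, n = 6), a difference of 0.35 ± 0.38 (SE), and -0.19 ± 0.48 (SE) without the 4 db/+ arrays. Leaving out 1 array gave from 0.19 (without db/db 409) to 0.66 (without db/+ 407).

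Cxcr2 binds the chemokines that call neutrophils out of the marrow and into tissue. Its level was 3.29 (101), 4.50 (103), 3.87 (104), 3.30 (105), 5.82 (106), 4.48 (404) and 7.57 (407) on the db/+ arrays. The db/db values were 5.42 (110), 3.54 (111), 4.07 (112), 6.83 (409), 5.51 (410) and 5.25 (411). As for Csf3r and S100a9, the highest control array was 407 and the highest db/db array 409. The db/+ mean was 4.69 ± 1.54 (SD, n = 7) and the db/db mean 5.10 ± 1.16 (SD, n = 6), a difference of 0.41 ± 0.70 (SE), and -0.01 ± 0.94 (SE) without the 4 db/+ arrays. Leaving out db/db 409 gave 0.07 and leaving out db/+ 407 gave 0.89. The lowest Cxcr2 values are near the bottom of the array range, where no detection call was available.

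Ngp, Camp and Ltf encode proteins of the specific granules, which form late in the marrow. Ngp, neutrophilic granule protein, had levels of 5.63 (101), 4.87 (103), 6.21 (104), 5.47 (105), 6.55 (106), 9.22 (404) and 6.70 (407) on the db/+ arrays. In db/db it was 8.82 (110), 5.89 (111), 8.0 (112), 6.96 (409), 7.38 (410) and 8.01 (411). The highest level was on a control array again, here 404 and not 407. The db/+ mean was 6.38 ± 1.41 (SD, n = 7) and the db/db mean 7.51 ± 1.02 (SD, n = 6), a difference of 1.13 ± 0.64 (SE), and 0.38 ± 0.81 (SE) without the 4 db/+ arrays. It was 1.83 ± 0.65 (SE) within samples 101 to 112 and -0.51 ± 0.78 (SE) within samples 404 to 411, so the direction differed between the series.

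Camp, the cathelicidin whose peptide kills bacteria, had levels of 6.23 (101), 5.83 (103), 6.44 (104), 6.02 (105), 6.40 (106), 8.70 (404) and 7.21 (407) on the db/+ arrays. On the db/db arrays it was 8.36 (110), 5.22 (111), 7.48 (112), 7.27 (409), 6.95 (410) and 7.95 (411). The order of the arrays was close to that of Ngp, with 404 and 110 on top of their groups. The db/+ mean was 6.69 ± 0.99 (SD, n = 7) and the db/db mean 7.21 ± 1.09 (SD, n = 6), a difference of 0.52 ± 0.53 (SE), and -0.10 ± 0.71 (SE) without the 4 db/+ arrays. It was 0.28 when db/db 110 was left out and 0.91 when db/db 111 was.

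Ltf, lactoferrin, binds iron and withholds it from bacteria. Its level was 4.98 (101), 4.72 (103), 5.66 (104), 4.93 (105), 4.96 (106), 7.04 (404) and 5.74 (407) on the db/+ arrays. The db/db values were 7.03 (110), 5.18 (111), 5.97 (112), 6.66 (409), 6.80 (410) and 6.97 (411). The groups overlapped through db/+ 404, the highest array, and db/db 111, the lowest of its group. The db/+ mean was 5.43 ± 0.81 (SD, n = 7) and the db/db mean 6.44 ± 0.72 (SD, n = 6), a difference of 1.0 ± 0.39 (SE), and 0.54 ± 0.51 (SE) without the 4 db/+ arrays.

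In the fit across all genes, limma with Benjamini-Hochberg adjustment at 0.05 called 25.1% of genes for genotype, 13.4% as higher and 11.7% as lower in db/db. All 8 differences of the measured members were above 0, with a median of 0.76, against a median of 0.02 over all genes. Without the 4 db/+ arrays, when 12.9% of all genes were called and 6.12% as higher, the median of the members was 0.21. Within samples 404 to 411, with 9.10% of genes called, it was 0.13. Since this contrast chose the members, their calls are not given and nothing is read from these medians.

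Some members were highest on different arrays, and they are grouped here after their values were seen. After each genotype's mean was subtracted, Ngp and Camp correlated at r = 0.94 over the 13 arrays, Camp and Ltf at 0.91, and Ngp and Ltf at 0.86. S100a9 and Cxcr2 correlated at 0.86 and Csf3r and Cxcr2 at 0.83. Between these groups the values ran from 0.18 for Csf3r and Ngp to 0.61 for S100a9 with Camp and with Ltf, close to the 0.64 of S100a9 and Csf3r. Across the 6 db/db arrays alone, S100a9 correlated with Ltf at 0.91 and with Camp at 0.81, and Cxcr2 with Ltf at 0.77, so the groups were less apart there than over the 7 db/+ arrays, where these were 0.32, 0.38 and 0.17. S100a8 was at 0.74 with Cxcr2, 0.66 with Csf3r and 0.45 with Ngp. S100a7l2 was below 0 with each of the other 7, from -0.18 with S100a9 to -0.48 with Ngp. With S100a8 the sign depended on genotype, at -0.55 over the db/+ arrays and 0.75 over the db/db arrays. These values are descriptions, since all genes of an array share its RNA and labelling.

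Sample by sample, the mean of S100a9, Csf3r and Cxcr2, each taken relative to its own mean over all arrays, was highest on db/+ 407 at 2.22 and db/db 409 at 1.64, and lowest on db/db 111 at -1.75. The same mean for Ngp, Camp and Ltf was highest on db/+ 404 at 1.75 and db/db 110 at 1.5, and lowest on db/+ 103 at -1.44. On db/+ 407 the granule mean was -0.03, and on db/+ 404 the other mean was -0.33. The control array that was highest for one set of genes was thus not the one highest for the other. In bulk tissue, fewer cells of a type and less RNA per cell cannot be told apart.

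**Figure D2:**
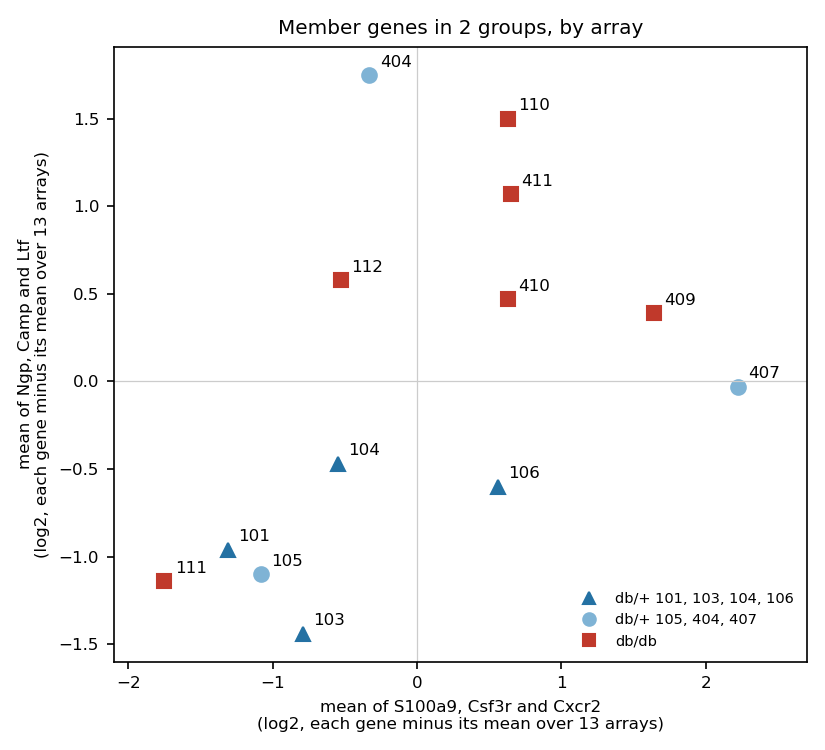
Each point is 1 array with its sample number. The horizontal axis is the mean log2 level of S100a9, Csf3r and Cxcr2 and the vertical axis that of Ngp, Camp and Ltf, each gene taken relative to its own mean over the 13 arrays. Array 407 lies far right at 2.22 and array 404 at the top at 1.75, both from db/+ mice, and db/db 111 lies at the lower left.

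By a set rule, the 5 genes outside the members most like the mean of S100a8 and S100a9 were named, over the 13 arrays with genotype means subtracted. They were Dlgap2 (r = 0.92), Il1f9 (0.91), Stfa2l1 (0.90), Irx1 (0.89) and Gbgt1 (0.87). Il1f9, an interleukin 1 family cytokine, and Stfa2l1, a stefin protease inhibitor of neutrophils, are both on the list of mature neutrophil genes. Stfa2l1 ranged from 3.90 to 8.28 in db/+ and from 4.58 to 9.76 in db/db. Dlgap2 spanned 4.02 to 4.62 in db/+ and 3.88 to 4.32 in db/db. The genes most like the mean of Ngp, Camp and Ltf were Pcnt (r = 0.89), 1700009J07Rik (0.88), Dnajc16 (0.88), Mtif2 (0.87) and Zmiz2 (0.86), of which 0 are on a neutrophil list. In db/+, Gbgt1 spanned only 3.60 to 4.44 and 1700009J07Rik 3.61 to 4.57, both low levels. Since these r values are the highest of all genes over 13 arrays, they are high by selection and carry no test.

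The number series is a contrast that did not choose the members, and it was tested with genotype in the model. Ltf was higher in samples 404 to 411 than in samples 101 to 112 by 1.04 ± 0.31 (SE, limma adjusted p = 0.0416). It was the 1 of 8 members that passed, where 17.0% of all genes passed and 10.5% were higher. The other 7 did not pass, with differences of 2.13 ± 0.76 (SE, limma adjusted p = 0.075) for S100a9 and 1.69 ± 0.60 (SE, limma adjusted p = 0.0731) for Cxcr2. S100a8 differed by 0.94 ± 0.38 (SE, limma adjusted p = 0.11) and S100a7l2 by -0.87 ± 1.02 (SE, limma adjusted p = 0.576). The Ltf call was lost when any 1 of 11 of the 13 arrays was left out, the exceptions being db/+ 104 and db/db 110, with differences of 0.73 to 1.29. It was also lost without the 4 db/+ arrays, with a difference of 0.97.

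Whether the genotype difference itself differed between the series was tested as an interaction, which limma called for 0 genes after adjustment. At an unadjusted p under 0.05 it gave 15.3% of genes and 1 of the 8 members. That member was S100a7l2, whose genotype difference was larger in the higher series by 4.43 ± 1.66 (SE), at a limma adjusted p = 0.279. The lower series holds the 4 db/+ arrays with high neuronal genes, so series and those arrays cannot be told apart in this value. For Ngp the interaction was -2.34 ± 1.12 (SE), at a limma adjusted p = 0.345.

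Other neutrophil genes outside the members were counted from lists by role. Of 46 measured, 11 rose and 4 fell in db/db in the fit across all genes, and 31 did not pass, where 13.4% of all genes were higher and 11.7% lower. Their median difference was 0.40 against 0.02 over all genes. Without db/+ 101, 103, 104 and 106 the count turned to 1 higher and 9 lower, with a median of -0.05, equal to that of all genes, and with 12.9% of all genes called and 6.12% higher. Within samples 404 to 411 the count was 1 higher and 4 lower, with 9.10% of all genes called. Between the series, 12 of the 46 were higher in samples 404 to 411 and 0 lower. The count without the 4 db/+ arrays therefore cannot be told apart from the series, for which that fit is less balanced. Leaving out any other single array gave 10 to 12 higher, except that 18 were higher without db/+ 407. The highest of the 13 arrays was db/db 409 for 17 of the 46 genes and db/+ 407 for 15 of them, whereas these arrays were highest for 4.41% and 12.9% of all genes. They also had the lowest actin 3′ minus 5′ differences of the 13, at 0.48 and 0.40, and the part of RNA quality in this was not tested.

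The primary granules form first, in promyelocytes, and hold myeloperoxidase and elastase. Of 6 genes listed with them, 0 rose and 2 fell, where 13.4% of all genes were higher and 11.7% lower. The other 4, Mpo, Elane, Prtn3 and Ctsg, encode granule contents and did not pass over all arrays. Without the 4 db/+ arrays 4 of the 6 were lower, with 12.9% of all genes called. The 2 that fell over all arrays were Serpinb1a, an inhibitor of these proteases, and Ms4a3, a surface protein of granulocyte progenitors. Serpinb1a ran from 10.78 to 11.47 in db/+ and from 10.04 to 10.58 in db/db, without overlap, a difference of -0.90 ± 0.14 (SE, limma adjusted p = 0.000609). It kept its call without the 4 db/+ arrays. Within samples 404 to 411, with 5 arrays, the difference was about as large at -0.84 and did not pass. Ms4a3 differed by -1.74 ± 0.59 (SE, limma adjusted p = 0.0478), and by -0.31 without the 4 db/+ arrays, where it did not pass. Its call was also lost under median centring and in 10 of the 13 single-array omissions. Mpo, myeloperoxidase, and Prtn3, proteinase 3, were singled out after their values were seen. Mpo differed by -0.06 ± 0.48 (SE) over all arrays, which did not pass, and by -1.23 ± 0.35 (SE) without the 4 db/+ arrays, which did (limma adjusted p = 0.0473). Prtn3 differed by -0.71 ± 0.47 (SE), which did not pass, and by -1.57 ± 0.40 (SE) without the 4 arrays (limma adjusted p = 0.0328).

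Of 12 further specific and gelatinase granule genes, 5 rose and 1 fell, where 13.4% of all genes were higher and 11.7% lower. Adam8, a metalloproteinase that sheds adhesion molecules from leukocytes, ran from 7.57 to 9.76 in db/+ and from 10.85 to 12.40 in db/db, without overlap. It rose by 2.88 ± 0.39 (SE, limma adjusted p = 0.000258), and by 2.01 without the 4 db/+ arrays and 2.12 within samples 404 to 411, where it also passed. It was the 1 gene of the 46 called as higher in each of these. Mmp9, gelatinase B, moved the other way, from 9.61 to 11.32 in db/+ and from 8.80 to 10.02 in db/db, a difference of -1.33 ± 0.29 (SE, limma adjusted p = 0.00568). Mmp9 passed without the 4 arrays at -1.86 and, within samples 101 to 112, was at -1.19 and did not pass. Haptoglobin (Hp), which adipocytes also make, rose by 0.40 ± 0.10 (SE, limma adjusted p = 0.0101) and annexin A1 (Anxa1) by 0.45 ± 0.10 (SE, limma adjusted p = 0.00543), both without overlap. Both calls were lost without the 4 arrays. The 8 adipocyte genes had means of 12.85 to 12.96 on the db/db arrays and 11.60 to 12.57 on the db/+ arrays. Of these 8, 5 rose, or 3 without the 4 db/+ arrays, against 13.4% and 6.12% of all genes. The part of the adipocyte genes in these values was not tested.

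Of 14 surface genes, 4 rose and 1 fell, where 13.4% of all genes were higher and 11.7% lower. Itgb2, the integrin chain of leukocytes, rose by 1.23 ± 0.27 (SE, limma adjusted p = 0.00644), and Clec4d, a lectin of neutrophils and macrophages, by 2.27 ± 0.52 (SE, limma adjusted p = 0.00749). Mcemp1, a membrane protein of mast cells and neutrophils, rose by 1.75 ± 0.48 (SE, limma adjusted p = 0.02). These 3 calls were lost without the 4 db/+ arrays, with differences of 0.68, 1.53 and 0.98. Il1r2, the decoy receptor for interleukin 1, fell, with a difference of -1.54 ± 0.49 (SE, limma adjusted p = 0.036), a call that 10 of the 13 single-array omissions ended. Of 14 genes of the mature cytosol, 2 rose and 0 fell, near the 13.4% of all genes that were higher. Slpi, an inhibitor of neutrophil elastase, rose by 2.41 ± 0.58 (SE, limma adjusted p = 0.0098) and Wfdc21, a related small secreted protein, by 1.16 ± 0.32 (SE, limma adjusted p = 0.0196). Without the 4 arrays they differed by 1.73 and 0.31 and did not pass. Of 6 transcription factors of the lineage, 1 rose and 0 fell, also near the share of all genes. It was Cebpb, at 0.68 ± 0.18 (SE, limma adjusted p = 0.0146), a call also lost without the 4 arrays.

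**Figure D3:**
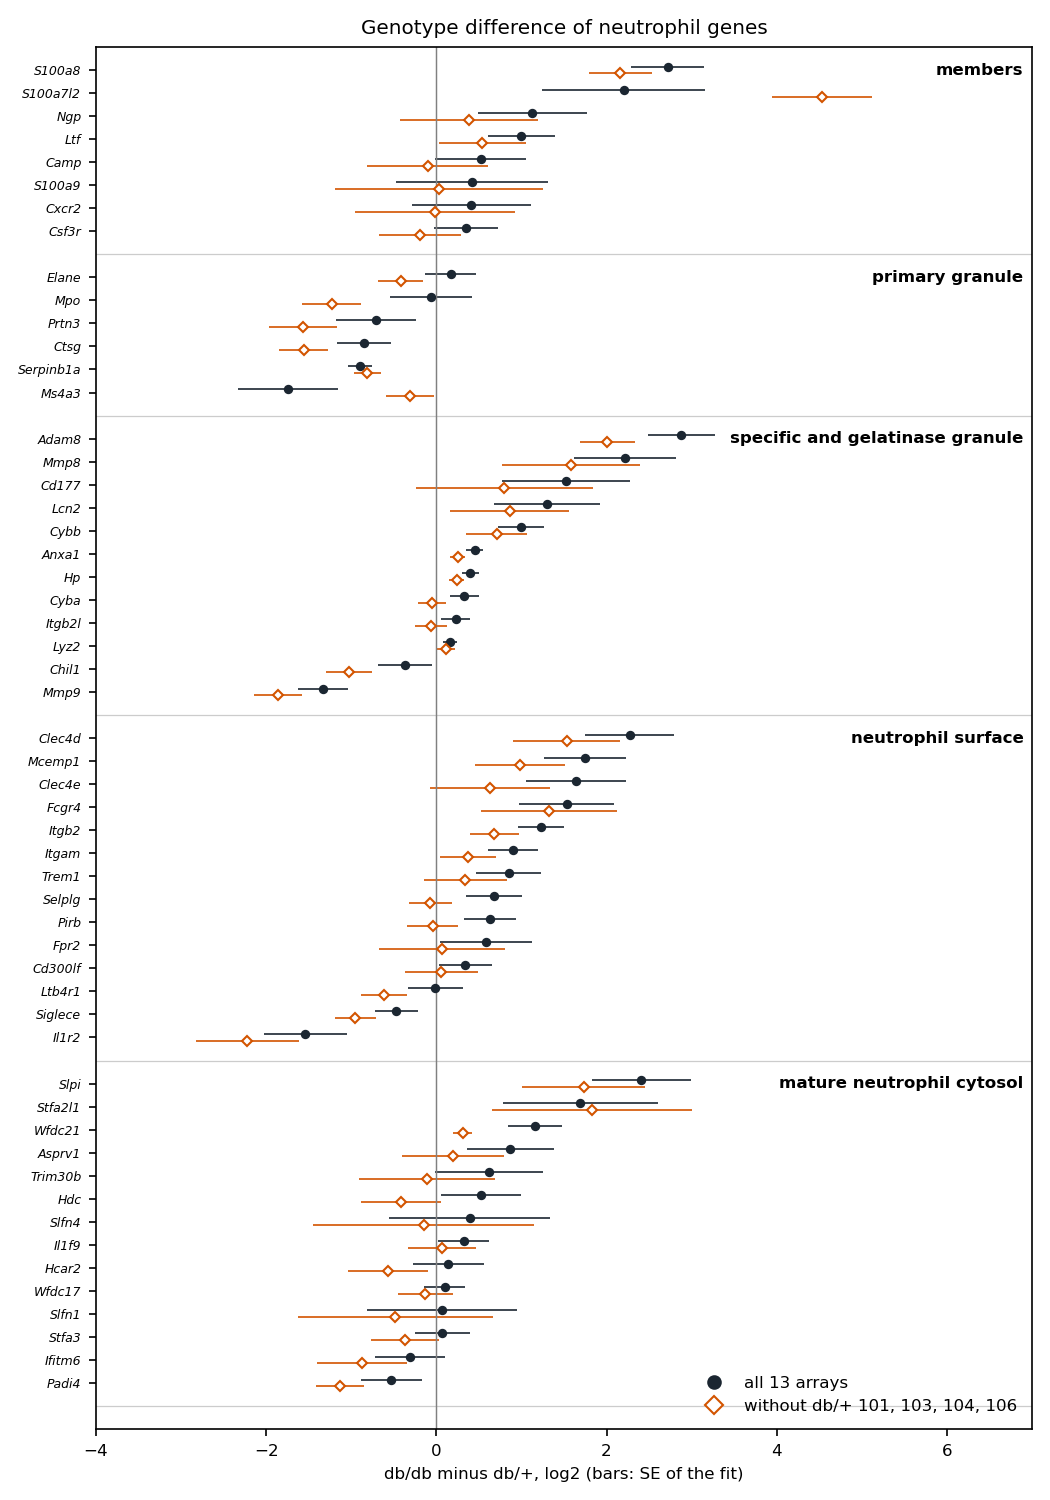
Difference in log2 level between db/db and db/+ (horizontal axis) for the 8 members and 46 other neutrophil genes by list (vertical axis). Black circles are fits on all 13 arrays, open orange diamonds fits without db/+ 101, 103, 104 and 106, and bars the SE of each fit. Most diamonds lie left of their circles, Adam8 stays at 2.01 or above in both, and S100a7l2 moves right to 4.53.

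Genes of monocytes and macrophages, which share several of these surface and S100 genes, moved partly with them. Of 12, 4 rose and 0 fell, against 13.4% and 11.7% of all genes, Cd68 by 1.38 ± 0.33 (SE, limma adjusted p = 0.0101) and Adgre1 by 0.86 ± 0.23 (SE, limma adjusted p = 0.0179). Their mean level ran from 10.10 to 11.34 in db/+, highest on 407, and from 10.30 to 11.19 in db/db, highest on 409. These are the same 2 arrays on which S100a9, Csf3r and Cxcr2 were highest. The 4 calls were lost without the 4 db/+ arrays, and the part of these cells in the members' levels was not tested. Of 5 erythroid genes, which would mark blood in the nerve, 0 passed, with means of 5.71 to 7.19 in db/+ and 5.82 to 8.02 in db/db. Of 7 platelet genes, 1 rose (Treml1) and 2 fell (Gp1bb and Itga2b). Eosinophil and basophil genes had 0 higher and 2 lower of 7, with means of 4.81 to 6.53 in db/+ and 4.96 to 5.34 in db/db. Without the 4 db/+ arrays 4 of the 7 were lower (Siglecf, Ccr3, Cd200r3 and Il5ra), with 12.9% of all genes called. Mast cell genes had 0 higher and 2 lower of 8, and progenitor genes 0 higher and 3 lower of 6. Of the 13 neuronal genes 11 fell, 4 of them also without the 4 db/+ arrays, and of 9 skeletal muscle genes 0 passed.

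Keratinocyte genes bear on S100a7l2, which skin expresses. Of 10, 0 rose and 2 fell, against 13.4% and 11.7% of all genes. Their mean level was 6.19 to 6.43 in db/+ and 5.62 to 6.18 in db/db. Those called were Krtdap at -1.74 ± 0.56 (SE, limma adjusted p = 0.0396), lost in 10 single-array omissions and without the 4 db/+ arrays, and Krt10 at -0.59 ± 0.15 (SE, limma adjusted p = 0.0142). Sprr1a, a cornified envelope protein, parted the db/+ arrays as S100a7l2 did, a match noticed after its values were seen. It lay at 9.71 (101), 7.86 (103), 8.39 (104) and 8.63 (106) on the quartet and at 5.64 (105), 5.67 (404) and 6.69 (407) on the trio. That quartet is also the one with high neuronal genes, whose part in the Sprr1a levels was not tested. On the db/db arrays, where S100a7l2 ran from 5.67 to 9.0, Sprr1a ran from 5.09 to 6.83. The quartet of db/+ arrays with high S100a7l2 had keratinocyte means of 6.19 to 6.37 and the low trio 6.21 to 6.43. The part of skin cells in the S100a7l2 levels was not tested.

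Among 11 other S100 genes, 1 rose and 2 fell, against 13.4% and 11.7% of all genes, with a median difference of -0.03. S100g, calbindin D9k, a calcium buffer known from the intestine, was the one that rose. It lay at 5.91 (101), 6.46 (103), 5.90 (104), 5.93 (105), 6.12 (106), 6.27 (404) and 5.52 (407) on the db/+ arrays. In db/db it was 10.25 (110), 8.25 (111), 8.78 (112), 9.43 (409), 9.68 (410) and 9.96 (411). Every db/db array was above every db/+ array, and the db/+ quartet did not stand apart. The difference was 3.38 ± 0.29 (SE, limma adjusted p = 1e-05), 3.48 without the 4 arrays and 3.79 within samples 404 to 411, and it passed in each. S100b, a marker of Schwann cells, differed by -1.07 ± 0.21 (SE, limma adjusted p = 0.00358), a call lost without the 4 arrays at -0.67. Of 9 myelinating Schwann cell genes, 6 fell as well, against 11.7% of all genes, and 0 did without the 4 arrays. S100a1 differed by -0.52 ± 0.12 (SE, limma adjusted p = 0.00676) and kept its call without the 4 arrays at -0.69. S100a4 and S100a6, which lie in the same cluster as S100a8, differed by 0.22 ± 0.12 (SE) and -0.10 ± 0.06 (SE) and did not pass.

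**Figure D4:**
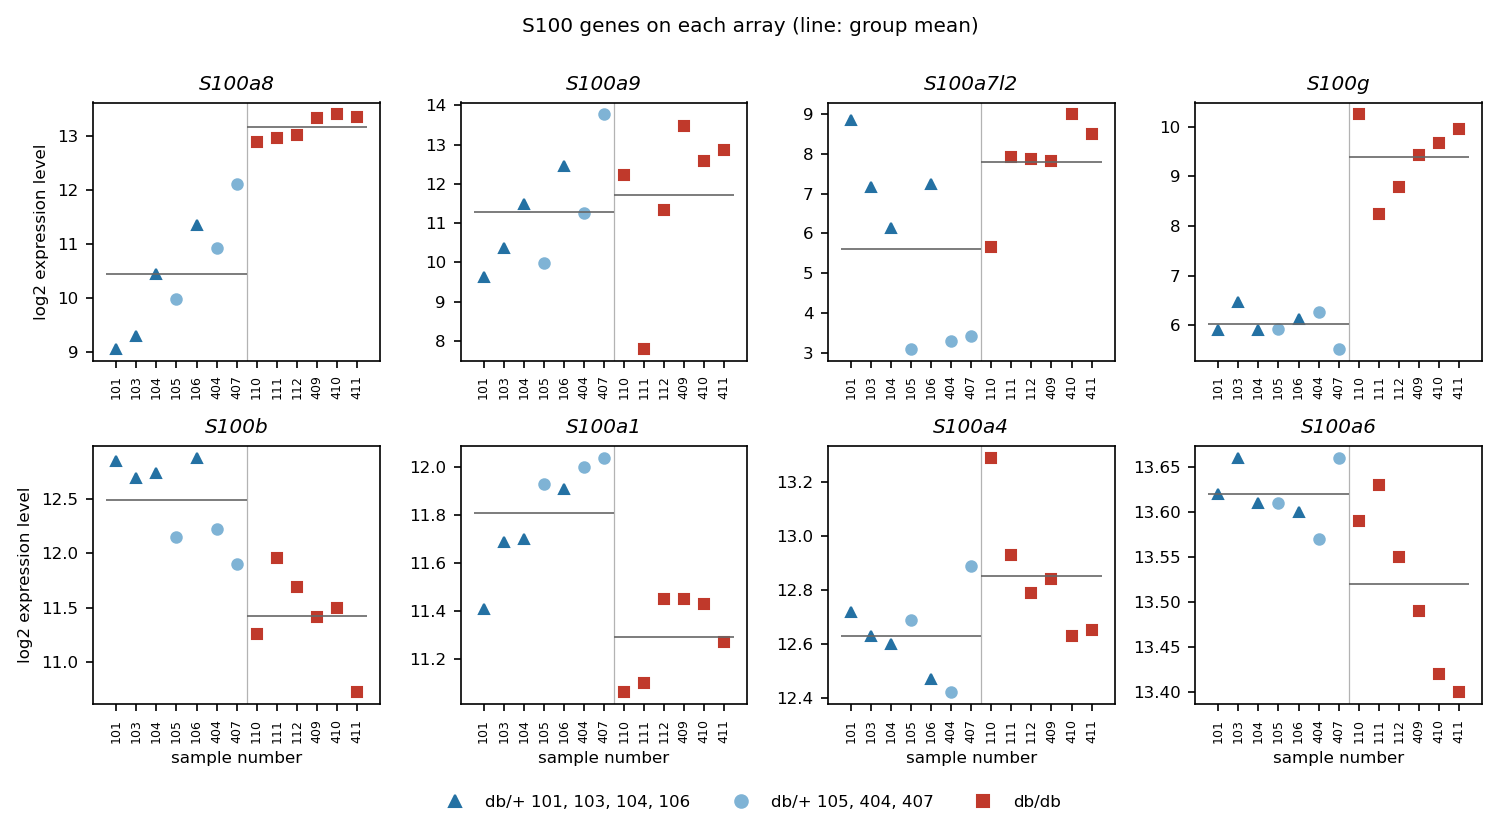
Log2 expression level (vertical axis, its own range in each panel) of 3 member and 5 other S100 genes on each array (horizontal axis, sample number), with symbols and group means as in the plot of the members. S100a8 and S100g are the panels without overlap between db/+ and db/db, and S100g lies at 5.52 to 6.46 in db/+ and 8.25 to 10.25 in db/db.

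The receptors and adaptors through which S100a8 and S100a9 act as alarmins had 0 of 11 past the threshold over all arrays. Without the 4 db/+ arrays 1 was lower, the pattern receptor Tlr2, at -0.88 ± 0.21 (SE, limma adjusted p = 0.0245), and within samples 404 to 411 it was at -0.91 (limma adjusted p = 0.048). Over all arrays Tlr2 differed by -0.18 ± 0.28 (SE). Ly96, the partner of Tlr4, had the smallest p over all arrays, with a difference of 0.65 ± 0.25 (SE, limma adjusted p = 0.07). Of 18 genes that recruit neutrophils, 4 rose and 0 fell, against 13.4% and 11.7% of all genes. Cxcl2, a ligand of Cxcr2, ran from 4.63 to 8.32 in db/+ and from 8.24 to 11.86 in db/db and rose by 3.18 ± 0.72 (SE, limma adjusted p = 0.00732). Cxcl3, another ligand, rose by 2.39 ± 0.65 (SE, limma adjusted p = 0.0184). C5ar1, the receptor for complement C5a, rose by 0.94 ± 0.25 (SE, limma adjusted p = 0.016), and Lta4h, which makes leukotriene B4, by 0.45 ± 0.10 (SE, limma adjusted p = 0.00499). All 4 calls were lost without the 4 db/+ arrays, with differences of 2.31, 1.68, 0.51 and 0.39. Of 6 genes of the Ly6 family, to which Ly6g belongs, 0 passed, and Ly6h had the smallest p with a difference of -0.87 ± 0.42 (SE, limma adjusted p = 0.144).

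Between the number series, 12 of the 46 neutrophil genes were higher in samples 404 to 411 and 0 lower, against 10.5% of all genes higher. The median was 0.83 for the 46 and 0.06 over all genes. Without the 4 db/+ arrays 9 were higher, and leaving out single arrays gave 8 (without db/+ 407) to 15 (without db/+ 105). The count over all genes, in either direction, moved as well. It was 2622 with all arrays, 1584 without the 4, 1553 without db/+ 407 and 3177 without db/+ 105. The largest member difference in this contrast was that of S100a9, which did not pass.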

How the data were processed

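RNA from sciatic nerve was isolated with a DNase step, amplified and hybridised with a biotin label to arrays of 1 colour. The table holds log2 expression levels as the authors deposited them, made with RMA per the submitters' processing notes. RMA subtracts background, sets arrays to a shared distribution and combines probes, so small levels show compressed differences. No source used here names the RMA version or the probe set definitions, and no detection calls were used.

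Of 15479 probe sets, 42 controls were left out, 14801 of the remaining 15437 had 1 symbol and 636 had none, and no gene had more than 1 probe set. The labels' genotype set the groups. Limma 3.58.1 (lmFit, eBayes; R 4.3.3) fitted genotype, then number series with genotype in the model, then their interaction. Tests were two-sided, p-values were adjusted by Benjamini-Hochberg over 15437 genes, and the threshold was 0.05. On simulated data with 7 against 6 arrays, the genotype fit found 80% of the genes shifted by 1 and 91% of the genes shifted by 2, with 6 false calls among 177. For each shift 100 of 15437 genes were changed. The simulated noise was independent between genes, with no set of arrays apart and no series difference, so these figures do not carry over to the real arrays.

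The members, the 20 lists (192 of 227 entries measured) and the tests were chosen with earlier results of these data known. The rule for named genes took all measured members, up to 4 called genes of each neutrophil, S100, alarmin, recruitment and Ly6 list by smallest p (1 where none passed), 2 called genes of each list of other cell types, and the 5 genes most correlated with each of 2 member means. Besides those 10 it named 40 genes. Genes outside the rule that are given with values (Mpo, Prtn3, Sprr1a, Tlr2, Alas2, S100a4 and S100a6) were chosen after their values were seen. Alternatives were intensity trend, robust moderation, renewed quantile normalization, median centring, a filter on genes with a mean below the 25th percentile, array weights, the series as a block or alone, an exact rank-sum test, and leaving out the 4 db/+ arrays or each array. Tables and plots were made in Python 3.11.15 (pandas 2.3.3, numpy 2.4.6, scipy 1.17.1, matplotlib 3.10.9). Promoter windows came from RefSeq, GRCm38.p6.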

Additional observations from a re-analysis of the deposited data

Results flagged for a closer look

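Single arrays stood far from the rest of their group in 6 of 96 group values tested for a lone high or low array, and chance alone flags about 1 in 20 such groups. S100a9 was at 7.80 on db/db 111, 3.55 below the next of its group. S100a7l2 was at 5.67 on db/db 110, 2.16 below the next. Csf3r was at 9.37 on db/+ 407, 1.84 above the next db/+ array, and Ngp was at 9.22 on db/+ 404, 2.52 above the next. Outside the members, the keratin Krt10 was at 8.65 on db/db 110 as the lowest of its group, and Lta4h was at 10.38 on db/+ 105 as the highest of its group.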

How the results depend on the processing

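No paired analysis was possible because the db/+ and db/db samples share no sample number. Genes called for genotype numbered 3867, and 6525 with array weights, 1404 within samples 404 to 411 and 1992 without db/+ 101, 103, 104 and 106. Neutrophil list genes called numbered 15, and 24 with array weights and 5 within samples 404 to 411. Genes called for the number series numbered 2622, and 1584 without the 4 db/+ arrays, 1406 without db/+ 404 and 1553 without db/+ 407, up to 3177 without db/+ 105. The Ltf series difference of 1.04 lost its call without the 4 db/+ arrays (0.97) and in 11 of 13 leave-one-out fits (0.73 to 1.19; 1.29 without db/db 110, where it held), and was not run under the filter on dim genes, which Ltf and Cxcr2 did not pass. With the series as an additive block, S100a9 stood at -0.03 in place of 0.42, and Ms4a3 lost its call. No detection call tells how far the lowest levels, such as those of Cxcr2 and S100a7l2, lie above background.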
